A study of Homo sapiens with 4 samples.

Results

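The cartilage and fat lineage markers are 10 genes that mark the fates a mesenchymal progenitor can take in place of bone. The rule that picks them uses their names and no measured value. For cartilage the genes are SOX9, SOX5, SOX6, ACAN and COMP, and for fat PPARG, CEBPA, CEBPB, FABP4 and LPL. All 10 were found by their official symbols among the 19610 gene symbols of the mRNA table, in 47 of its 79798 transcript rows. The question was whether genes of these alternative fates were expressed while hFOB1.19 cells differentiated toward mineralizing osteoblasts.

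hFOB1.19 is an established human fetal osteoblast line, 1 clone immortalized with a temperature-sensitive SV40 large T antigen, so that the cells divide at the permissive temperature and differentiate at a raised one. The 4 samples are 1 library each of day 0, labelled control, and of days 3, 6 and 9 of differentiation, labelled as undergoing mineralization. By the study's methods day 0 cells had been grown at the permissive temperature and later days at the raised one, so temperature and the start of differentiation cannot be told apart in any comparison with day 0. With 1 library per day there was no replicate check, no test was possible and no p-value is given.

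As background, SOX9 starts cartilage formation, its partners SOX5 and SOX6 bind alongside it, and together they switch on cartilage matrix genes such as ACAN and COMP. Fat formation runs as a relay: CEBPB is induced early and helps to activate PPARG and CEBPA, which maintain one another and turn on genes of the mature fat cell such as FABP4 and LPL. Bone-forming cells arise from the same progenitors under RUNX2. SOX9 and CEBPB are also active outside these lineages, CEBPB as a factor of the response to inflammation and stress.

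The bases just before annotated starts of CEBPB, CEBPA and PPARG are shown because these genes form the regulatory core of the fat relay and differed widely in level. The sequences are RefSeq's, build GRCh38.p14, 120 bases ending at the base before the start, 5′ to 3′. Capitals mark letters that matched any of the 5 motifs searched on both strands: TATAAA (the TATA box), TGACG (the core of a cAMP response element), TTGCNNAA (C/EBP), AACAAT (SOX) and AGGTCA (the core of a PPAR and RXR element). The CEBPB window is chr20:50190710-50190829 on the plus strand, the CEBPA window chr19:33302535-33302654 on the minus strand, and the PPARG windows chr3:12288950-12289069 and chr3:12351297-12351416 on the plus strand.
CEBPB: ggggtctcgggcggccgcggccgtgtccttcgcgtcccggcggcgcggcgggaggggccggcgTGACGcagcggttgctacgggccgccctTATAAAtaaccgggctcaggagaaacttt
CEBPA: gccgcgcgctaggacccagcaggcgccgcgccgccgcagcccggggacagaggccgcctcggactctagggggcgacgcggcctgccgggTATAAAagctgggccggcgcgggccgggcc
PPARG upstream start: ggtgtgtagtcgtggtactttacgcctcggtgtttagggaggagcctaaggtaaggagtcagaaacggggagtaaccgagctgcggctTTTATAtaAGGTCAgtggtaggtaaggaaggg
PPARG downstream start: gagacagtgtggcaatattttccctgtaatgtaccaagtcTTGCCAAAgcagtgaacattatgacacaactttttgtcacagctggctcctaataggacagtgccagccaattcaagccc

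CEBPB and CEBPA both held TATAAA, 29 and 30 bases before the start, and CEBPB also held TGACG 57 bases before it. This CEBPB start lies downstream of another annotated start of the same gene. At the upstream PPARG start the exact TATAAA match lay on the reverse strand, as TTTATA, 32 bases before the start. AGGTCA lay 24 bases before the same start. The forward strand across these letters reads TATATAAGG, a TATA-like run that the exact search did not count. The downstream PPARG start held a C/EBP match, TTGCCAAA, 80 bases before it. Of 35116 windows of 250 bases, 10.7% held TATAAA, 21.2% TGACG, 9.05% TTGCNNAA, 8.98% AACAAT and 12.1% AGGTCA. Among 17 windows of the 7 members used, 7 held TATAAA, 2 held TGACG, 1 held TTGCNNAA, 5 held AACAAT and 3 held AGGTCA. Some of these windows overlapped one another. The TATAAA matches of SOX6 lay 53 to 222 bases before the start, farther than the 22 to 32 bases of the other members. TGACG and the reverse strand of AGGTCA share the letters TGAC, so the motifs are not fully separate. A match is a description of the letters, not a bound site. No window was used here for SOX9, FABP4 and LPL.

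Levels are FPKM (fragments per kilobase of transcript, scaled to the depth of the library), summed over a gene's transcripts, so they can be compared between genes per length. Only 4 of the 10 members reached 1 FPKM in any library: CEBPB, PPARG, SOX9 and SOX5. The other 6 (SOX6, ACAN, COMP, CEBPA, FABP4 and LPL) stayed below 1 FPKM in all 4 libraries, with a highest value of 0.773. Over all symbols, 12859 of 19610 (65.6%) reached 1 FPKM in any library. The members above 1 FPKM were all transcription factors. Those below it were the transcription factors SOX6 and CEBPA, the cartilage matrix genes ACAN and COMP, the fat cell carrier FABP4 and the lipase LPL.

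**Figure D1:**
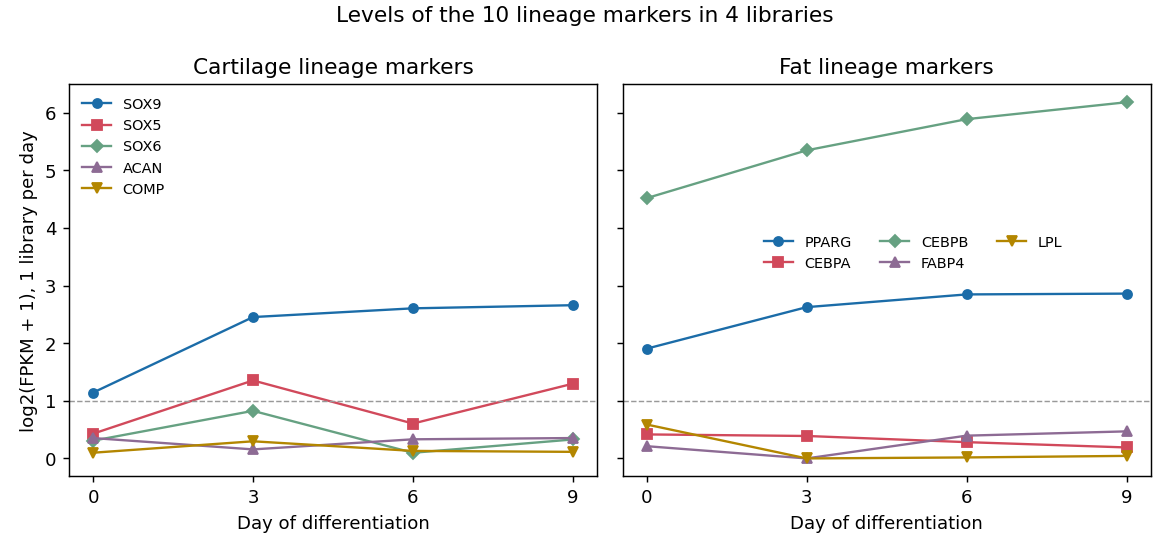
Level of each of the 10 markers as log2(FPKM + 1) against the day of differentiation, 1 library per day, cartilage markers on the left and fat markers on the right, with lines joining the 4 libraries and a dashed line at 1 FPKM. CEBPB lies above all other markers on every day (21.9 to 71.6 FPKM), PPARG and SOX9 lie between 1.21 and 6.26 FPKM, and 6 markers stay under the dashed line.

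In the day 9 library the order of levels was CEBPB at 71.6 FPKM, PPARG at 6.26, SOX9 at 5.32, SOX5 at 1.46, FABP4 at 0.385, ACAN at 0.278, SOX6 at 0.256, CEBPA at 0.141, COMP at 0.0824 and LPL at 0.0311. The first 3 places were the same in all 4 libraries. Without replicates the spread of no neighbouring pair is known. PPARG and SOX9 were 2.75 and 1.21 FPKM on day 0 and closer to each other in the later libraries. On day 9, 93.5% of all gene symbols had a lower level than CEBPB, and 51.4% had a lower level than SOX9.

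**Figure D2:**
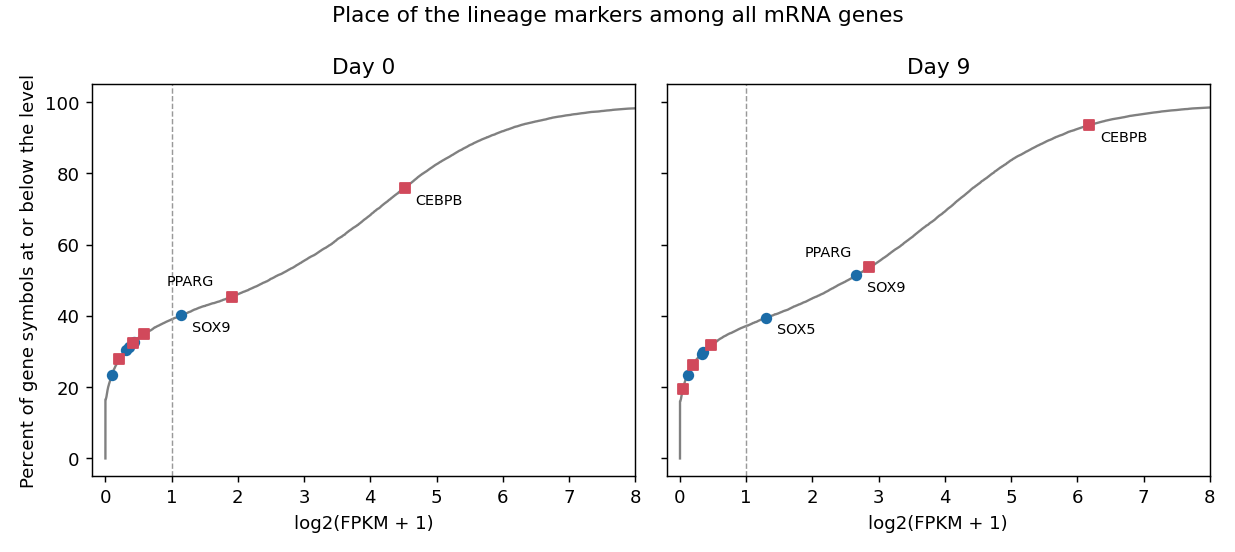
Percent of all gene symbols at or below a level (vertical axis) against the level as log2(FPKM + 1) (horizontal axis), with cartilage markers as blue circles and fat markers as red squares, in the day 0 and day 9 libraries. The dashed line marks 1 FPKM, and 7 markers on day 0 and 6 on day 9 lie to its left.

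Differences between days are given as log2((FPKM + 1) / (FPKM + 1)), later day over earlier, which understates the difference of genes near or below 1 FPKM. A gene counted as past the limit at 1 or more in size (2-fold), among the 12859 genes that reached 1 FPKM. Days 3, 6 and 9 were each set against the same day 0 library, so these 3 comparisons share its error. Day 9 was also set against day 3, since both were cultured at the raised temperature.

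On day 3, SOX9 alone of the members was past the limit, and it was higher, while 8.13% of all genes tested were higher and 5.3% lower. On day 6, SOX9 and CEBPB were higher past the limit, against a background of 9.01% higher and 6.42% lower. On day 9 the same 2 members were higher, against 9.6% higher and 6.52% lower. No member was lower past the limit on any day. With 1 added, the 6 members below 1 FPKM could not pass the limit in either direction. Nor could SOX5, at 0.347 FPKM on day 0, be lower past it against that day. SOX5 passed the minimum only through its day 3 and day 9 libraries, where it was high. Between days 3 and 9 no member was past the limit in either direction, where 1.39% of all genes were higher and 0.863% lower. The members tested were only 4, so these counts say nothing about the group as such, and the median log2 ratio of all genes tested was -0.08, -0.08 and -0.09 for the 3 comparisons with day 0. The background moved with the setting. With each library scaled to the same FPKM sum, 1690 genes were higher and 481 lower on day 3, in place of 1046 and 681. Day 9 against day 3 gave 207 higher and 231 lower, in place of 179 and 111. The common sum was above the deposited sums of 538072 to 617857 FPKM, so every value was raised. The added 1 and the minimum of 1 FPKM then weighed less, so scaling was not the only thing changed.

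SOX9, the factor that commits cells to cartilage, had 1.21, 4.48, 5.08 and 5.32 FPKM on days 0, 3, 6 and 9. The day 0 library was the low one, and the 3 later libraries lay close together. Its log2 ratios to day 0 were 1.31, 1.46 and 1.52 in time order, and only 4.45% of genes tested had a larger ratio on day 9. From day 3 to day 9 it differed by 0.21. SOX9 was past the limit on all 3 days, as were 762 genes (5.93%) in the higher direction and 444 (3.45%) in the lower. LINC00511, a long non-coding RNA gene on the same chromosome (17) and the only one found of 13 non-coding genes looked for around the markers, had 1.17, 1.43, 1.39 and 1.26 FPKM, a log2 ratio of 0.06 on day 9.

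The genes whose profiles over the 4 libraries were most like that of SOX9 were CERS6, GREB1 and MFI2. The Euclidean distance between mean-centred log2(FPKM + 1) values was 0.03 for CERS6, 0.05 for GREB1 and 0.05 for MFI2, among 12858 genes compared. CERS6, a ceramide synthase, had 4.46 FPKM on day 0 and 14.8 on day 9. Over 4 points such likeness is common, and 103 genes lay within a distance of 0.2.

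SOX5 and SOX6, the partners of SOX9, were low. SOX5 had 0.347, 1.56, 0.521 and 1.46 FPKM in the libraries of days 0, 3, 6 and 9. Days 3 and 9 were high and day 6 was near day 0. Its log2 ratios to day 0 were 0.92, 0.18 and 0.87, and 0.1 in place of 1 added to the FPKM put it past the limit on days 3 and 9, at 1.89 and 1.80. Its signal was spread over 10 transcripts with no steady leader. ENST00000441133 held 73.0% of SOX5 on day 0 and stood at 0 in the day 6 and day 9 libraries. ENST00000541847 had 0.630 FPKM on day 3. ENST00000538083 had 0.630 on day 9 but 0 in the day 0 and day 6 libraries. SOX6 had 0.238, 0.773, 0.0704 and 0.256 FPKM on days 0, 3, 6 and 9, highest on day 3. On day 3 most of it came from ENST00000526673, at 0.680 FPKM, a transcript with 0 in the day 0 and day 6 libraries.

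The matrix genes among the members, ACAN and COMP, were near 0 throughout, while some other cartilage matrix genes, given below, were not. ACAN, which encodes aggrecan, the main proteoglycan of cartilage, had 0.278, 0.115, 0.259 and 0.278 FPKM on days 0, 3, 6 and 9, with day 3 the low library. Its log2 ratio was -0.20 on day 3 and 0.00 on day 9. COMP, a thrombospondin of the cartilage matrix, had 0.0710, 0.229, 0.0948 and 0.0824 FPKM, with day 3 the high library. Nearly all of COMP was in the transcript ENST00000425807.

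PPARG, the nuclear receptor that drives fat cell formation, had 2.75, 5.17, 6.19 and 6.26 FPKM in time order. As with SOX9 the day 0 library was the low one. Plain FPKM ratios to day 0 were 1.88, 2.26 and 2.28, and the log2 ratios with 1 added were 0.72, 0.94 and 0.96, just under the limit. With 0.1 added they were 1.15 on day 6 and 1.16 on day 9. With each library scaled to the same sum, which also raised all values, they were 1.18 and 1.14. PPARG's side of the limit thus depends on these choices. Of all genes tested, 10.2% had a larger ratio on day 9.

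The difference in PPARG was not in its most abundant transcript. ENST00000309576 had 1.89, 1.69, 1.91 and 1.71 FPKM on days 0, 3, 6 and 9, and its share of the gene was 68.7% on day 0 and 27.3% on day 9. ENST00000438682 had 0.208, 1.56, 1.70 and 1.45 FPKM, and ENST00000397015 had 0.454, 1.67, 1.51 and 1.44. Both were low on day 0 and level afterwards. Taken by ENST00000309576 alone, the log2 ratios of PPARG to day 0 were -0.10, 0.01 and -0.09. ENST00000397000 had 0.198, 0, 0.793 and 1.53 FPKM. ENST00000287820, the transcript of the longer form of the receptor that is typical of fat cells, had 0.134 FPKM in the day 9 library and 0 in the earlier 3. How FPKM are shared among overlapping transcripts is an estimate, with unknown error here.

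**Figure D3:**
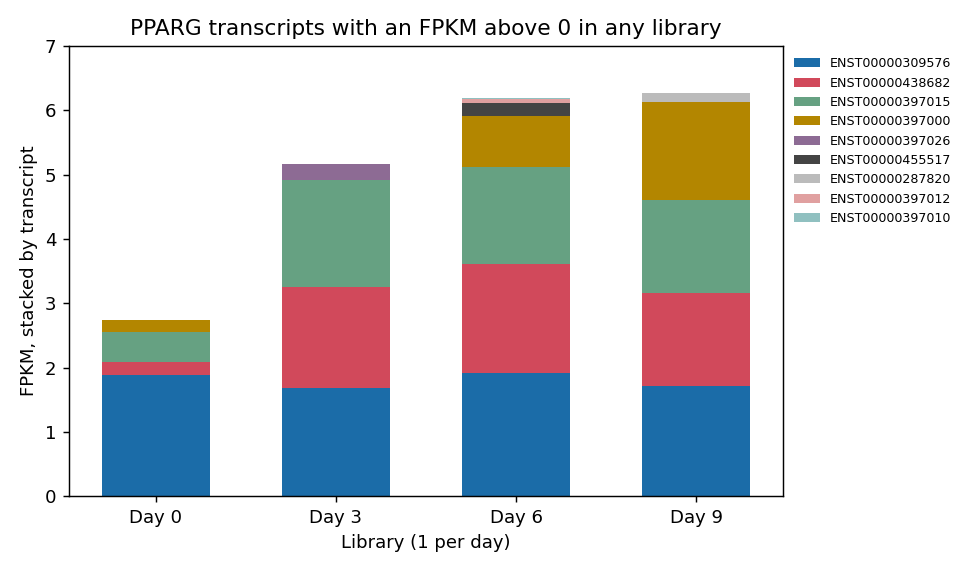
FPKM of each PPARG transcript above 0 in any library, stacked in 1 bar per library from day 0 to day 9. The lowest, blue segment (ENST00000309576) stays between 1.69 and 1.91 FPKM, while the gene's total goes from 2.75 to 6.26 through the segments above it.

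CEBPB, the early factor of the relay, was the most abundant member. It had 21.9, 39.7, 58.2 and 71.6 FPKM from the day 0 to the day 9 library, each above the one before it. Its log2 ratios to day 0 were 0.83, 1.37 and 1.66, and day 9 lay 0.83 above day 3. Of all genes tested 2.11% had a larger ratio between days 3 and 9, against 24.1% for SOX9. A limit of 1.5-fold put CEBPB past it in that comparison. The profiles nearest to it were those of SLC25A37, a mitochondrial iron carrier, SHC4 and CCDC3, at distances of 0.04 each, and 36 genes lay within 0.2. SLC25A37 had 11.8 FPKM on day 0 and 38.2 on day 9.

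CEBPA, the partner that CEBPB and PPARG are known to activate, was low and did not share the profile of CEBPB. It had 0.335, 0.310, 0.217 and 0.141 FPKM on days 0, 3, 6 and 9, highest on day 0 and lowest on day 9, a log2 ratio of -0.23 on day 9. FABP4, the fatty acid carrier of fat cells, had 0.159, 0, 0.315 and 0.385 FPKM, the day 3 library listing it at 0. LPL, the lipase that releases fatty acids from lipoproteins, had 0.504, 0, 0.0119 and 0.0311 FPKM in the same order, so that day 0 was its high library. On day 0, 60.8% of LPL came from ENST00000520959, which was at 0 in every later library, and ENST00000311322, the form found on days 6 and 9, had 0.0527 FPKM.

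The low values can be read as fragments. FPKM of low genes with 1 transcript row moved in steps, and the commonest ratio to day 0 among those under 0.15 FPKM gave depths of 78.5%, 84.3% and 97.1% of that of day 0 for the day 3, 6 and 9 libraries. Within 0.02 on the log2 scale it was shared by 90 of 329, 73 of 362 and 61 of 359 genes. The read totals that the study lists per day differ less from day 0 than these depths, and the difference was not examined. At these depths the CEBPA values stood to each other as 22, 16, 12 and 9 fragments on days 0, 3, 6 and 9, and the FABP4 values as 3, 0, 5 and 7, the smallest whole numbers that matched within 0.1. The true counts could be a multiple of these. Taken as the counts, they carry exact Poisson 95% intervals of 13.8 to 33.3 for CEBPA on day 0 and 4.12 to 17.1 on day 9, which overlap in part. For FABP4 the intervals were 0.619 to 8.77 on day 0 and 2.81 to 14.4 on day 9, and for the 0 on day 3 the interval reached 3.69. These cover counting error only, and differences between the days were not tested.

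Other genes of the cartilage programme were taken from fixed lists. Over all genes tested, 8.13%, 9.01% and 9.6% were higher and 5.3%, 6.42% and 6.52% lower on days 3, 6 and 9. Every list count below with 1 added stands beside these shares. Of 20 cartilage matrix genes, 9 reached 1 FPKM, and 2 were higher past the limit on each of days 3, 6 and 9, with none lower. Those 2 were MIA, a small protein secreted by cartilage cells, at 0.183 FPKM on day 0 and 6.46 on day 9 (log2 ratio 2.66), and CYTL1, a secreted cytokine-like protein, at 5.67 and 22.4 (1.81). MATN3, matrilin of the cartilage matrix, had 16.9 FPKM on day 0 and 8.33 on day 9, a log2 ratio of -0.94. C2orf82, a cartilage proteoglycan gene also called SNORC, had 1.08, 2.75, 1.53 and 0.794 FPKM on days 0, 3, 6 and 9. The collagens of the list, named after their values were seen, were at most 1.43 FPKM. COL2A1, the main collagen of cartilage, had at most 0.153 FPKM, and COL9A1 was listed at 0 in all libraries. COL9A2, COL10A1 and COL11A1 reached 1.43, 1.28 and 1.10 FPKM in their highest library, and COL11A2 and COL9A3 reached 0.897 and 0.642. None of these collagens was past the limit. The median log2 ratio of the list to day 0 was 0.39, 0.18 and 0.15 in time order.

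Of 13 chondrogenic regulators, 10 reached 1 FPKM. On day 3, 2 were higher past the limit, on day 6 1 was, and on day 9 none, with none lower at any time. They were NKX3-2 and GDF5, named after their values were seen, and on day 9 both lay just under the limit, at 0.98 and 0.93. With 0.1 added, day 6 had 2 higher and 2 lower, and day 9 had 3 higher and 2 lower. Beside these, of all 12859 genes tested, 1624 were higher and 1123 lower on day 6. On day 9, 1647 were higher and 1220 lower. NKX3-2 had 0.540, 2.26, 2.49 and 2.03 FPKM, and GDF5 had 0.969, 3.48, 2.71 and 2.76. The most abundant regulators were not past the limit: ARID5B, a co-factor of SOX9, had 28.8 FPKM on day 0 and 37.6 on day 9, and WWP2, whose gene lies under SOX9 control, had 20.0 and 9.71. TRPS1 had 10.9 and 15.5, and ZBTB20 had 8.15 and 9.09.

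Among 11 other SOX genes, 5 reached 1 FPKM. SOX4, a factor of osteoblast progenitors, was higher past the limit on all 3 days, at 4.88 FPKM on day 0 and 22.0, 20.9 and 21.9 on days 3, 6 and 9. It lay above SOX9 in each library. SOX11 was lower past the limit on day 9, at 2.11 FPKM on day 0 and 0.377 on day 9. SOX12 and SOX13 had log2 ratios of 0.06 and -0.42 on day 9.

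All 13 genes of chondroitin sulfate synthesis, which build the sugar chains carried by aggrecan and by other proteoglycans, reached 1 FPKM. Of these, 2 were past the limit on day 9 against day 0, and also on day 9 against day 3. CSGALNACT1, which starts the chains, had 0.540, 5.12, 10.7 and 12.3 FPKM (log2 ratio 3.11 on day 9). CHST11, a sulfotransferase named after its value was seen, had 3.16, 3.37, 8.94 and 13.1. PAPSS2, PAPSS1, CHPF and CHSY1 were abundant, at 21.3 to 49.7 FPKM on day 0, with log2 ratios between 0.11 and 0.40 on day 9.

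Of COMP's relatives, the 4 other thrombospondins, 3 reached 1 FPKM, and THBS4 lay near the level of COMP. THBS2 was past the limit on all 3 days, at 13.9 FPKM on day 0 and 80.3, 66.7 and 54.7 on days 3, 6 and 9. THBS1 had 321 FPKM on day 0 and 732 on day 9, a log2 ratio of 1.18. THBS3 had a log2 ratio of -0.26 on day 9, and THBS4 had at most 0.237 FPKM.

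On the fat side, 5 genes were listed as other C/EBP genes. Of these only CEBPD, which acts beside CEBPB early in the relay, was past the limit. It was higher on all 3 days. CEBPD had 7.17, 27.1, 21.2 and 23.2 FPKM. DDIT3, an inhibitor of C/EBP factors, had 17.1 FPKM on day 0 and 30.7 on day 9, a log2 ratio of 0.81. CEBPG and CEBPZ, the latter listed by its symbol only, had log2 ratios of -0.01 and -0.08.

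Of 10 PPAR receptors and partners, 7 reached 1 FPKM and none was past the limit in any comparison. PPARD, the widely expressed relative of PPARG, had 19.3, 25.3, 27.4 and 27.5 FPKM, above PPARG in every library. The co-repressor NCOR1 had 59.5 FPKM on day 0 and 54.3 on day 9. The mediator subunit MED1 had 31.3 and 17.0, a log2 ratio of -0.84.

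Among 9 adipogenic regulators, 6 reached 1 FPKM. ZNF423, which marks cells committed to fat, was higher past the limit on all 3 days, at 0.246 FPKM on day 0 and 1.89 on day 9 (log2 ratio 1.21). SREBF1, which drives fatty acid and sterol synthesis, was lower past the limit on days 6 and 9, at 15.6 FPKM on day 0 and 5.43 on day 9. NR3C1, KLF5 and EBF1 had log2 ratios of 0.53, 0.56 and 0.22 on day 9. Of 7 inhibitors of adipogenesis, 5 reached 1 FPKM, and KLF2, which represses PPARG, was lower on all 3 days, at 45.9 FPKM on day 0 and 9.30, 7.55 and 9.51 later. GATA2 was lower on day 9, at 8.07 and 3.39 FPKM. NR2F2 was lower past the limit between days 3 and 9 (84.5 and 38.5 FPKM), and HES1 had a log2 ratio of -0.23 on day 9.

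Of 24 adipocyte markers, 15 stayed below 1 FPKM in all 4 libraries, and 3 were listed at 0 in all: ADIPOQ, which encodes adiponectin, CIDEA and RETN, named after their values were seen. On each of days 3, 6 and 9, 2 of the 9 tested were higher, and on days 6 and 9 1 was lower. DGAT2, an enzyme of triglyceride synthesis, had 0.314, 2.05, 3.06 and 4.30 FPKM, and CFD, which encodes adipsin, had 0.651, 4.20, 3.42 and 3.21. LIPE, the hormone-sensitive lipase, was the lower one, at 6.87 FPKM on day 0 and 2.40 on day 9. AGPAT2, PNPLA2 and DGAT1, enzymes that many cells use, had log2 ratios of -0.59, -0.75 and 0.28.

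PPAR target genes held 2 that were past the limit on days 6 and 9 and between days 3 and 9. PLIN2, the coat protein of lipid droplets in most cells, had 16.0, 21.5, 34.4 and 50.5 FPKM. ANGPTL4, an inhibitor of LPL, named after its values were seen, had 1.26, 1.93, 5.14 and 10.4. ACADM, of fatty acid oxidation, had a log2 ratio of -0.74 on day 9, and FABP5, a relative of FABP4 with near-identical pseudogene copies and so an uncertain value, had -0.54.

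Among 12 LPL partners and lipoprotein uptake genes, 4 reached 1 FPKM. LRP1 and VLDLR, receptors that take up lipoproteins, were higher on all 3 days: LRP1 had 47.3 FPKM on day 0 and 160 on day 9, and VLDLR had 2.56 on day 0, with a log2 ratio of 1.63. LMF1, needed for LPL to fold, had 0.826, 2.04, 0.621 and 0.514 FPKM.

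**Figure D4:**
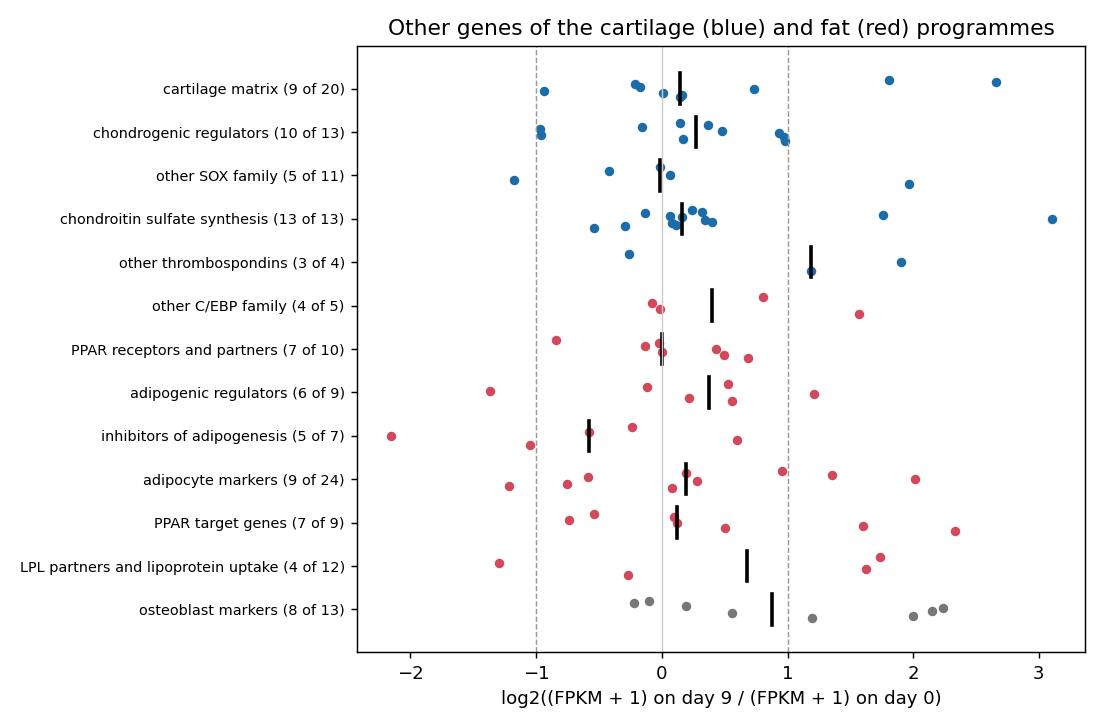
Log2 ratio of FPKM + 1 on day 9 over day 0 for each gene that reached 1 FPKM (dots), by fixed list, with the number tested of the number in the list in brackets, the list's median as a black bar and dashed lines at the limit. Cartilage lists are blue, fat lists red and osteoblast markers grey, and the medians run from -0.58 for the inhibitors of adipogenesis to 1.18 for the 3 thrombospondins.

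The median log2 ratio to day 0 of all genes tested was -0.09 on day 9. Beside it the medians on the cartilage side were 0.15 for cartilage matrix, 0.27 for chondrogenic regulators, -0.01 for other SOX genes, 0.16 for chondroitin sulfate synthesis and 1.18 for thrombospondins. On the fat side they were 0.40 for genes listed as other C/EBP, -0.00 for PPAR receptors and partners, 0.37 for adipogenic regulators and -0.58 for their inhibitors. They were 0.19 for adipocyte markers, 0.12 for PPAR targets and 0.68 for LPL partners and lipoprotein uptake.

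Beside these, 8 of 13 osteoblast markers reached 1 FPKM, and 4, 5 and 4 were higher on days 3, 6 and 9, against 8.13%, 9.01% and 9.6% of all genes, with medians of 1.02, 1.15 and 0.88. RUNX2, the factor of the bone lineage, had 7.37, 26.2, 19.3 and 18.2 FPKM. In each library it lay above SOX9 and PPARG but below CEBPB. ALPL, the alkaline phosphatase of mineralizing cells, had 0.294 FPKM on day 0 and 4.18 on day 9, and COL1A2 had 125 and 561. COL1A1 had 777 FPKM on day 0 and 1146 on day 9, and SPARC had 1113 and 1275. Late markers, named after their values were seen, were mixed. SPP1, which encodes osteopontin, had 0.794, 1.89, 5.14 and 7.45 FPKM, and was the 1 osteoblast marker past the limit between days 3 and 9 (log2 ratio 1.55). SP7, IBSP and BGLAP stayed below 1 FPKM, BGLAP at 0, 0.781, 0.426 and 0.793.

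Muscle, endothelial, blood and epithelial markers were low, while tendon and mesenchymal markers were not. All 6 muscle markers stayed below 1 FPKM, with a summed level of 0.296 to 1.47 FPKM over the libraries; MYOD1, MYF5, MYOG and DES were among them. Of 7 endothelial, blood and epithelial markers 1 reached 1 FPKM, CD14 at 1.07 on day 0, with summed levels of 1.25 to 2.71. PTPRC, EPCAM and CDH1 stayed below 0.8. Of 3 tendon markers, MKX was higher on all 3 days, at 4.46 FPKM on day 9 with a log2 ratio of 1.45, while SCX had 1.80 and 3.35 and TNMD was near 0. Of 6 mesenchymal and fibroblast markers all reached 1 FPKM, and COL3A1, THY1 and FN1 were higher on all 3 days, COL3A1 from 35.3 FPKM on day 0 to 193 on day 9. VIM had a log2 ratio of 0.70 on day 9. In a bulk sample a rare cell with much of an RNA and many cells with little of it cannot be told apart.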

How the data were processed

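Total RNA of hFOB1.19 cells was sequenced by the study after removal of ribosomal RNA, 1 library per day. By its methods RNase R, which degrades linear RNA, was used for the mRNA libraries, and reads were aligned with Bowtie and TopHat. The submitters' processing notes name Bowtie 0.12.2 and the mouse build mm8, while the gene identifiers are human; the program behind the FPKM is not given in the sources used here. FPKM of each transcript were deposited by the authors, for mRNAs and for lncRNAs. Depth was taken relative to day 0, from the steps of low values of 329 to 362 of the 4599 genes with 1 transcript row. The study's supplement lists read totals per day, which were set beside these depths but not used to derive them. The authors' 9 tables of their own comparisons (fold changes and p-values) and the circRNA counts were not used.

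FPKM were summed per symbol (17 symbols cover several gene identifiers). The log2 ratio used 1 FPKM added, a minimum of 1 FPKM in any library and a limit of 1 in size. No test was made. Some genes the naming rule picks are not reported here. All 10 markers are named, and of each list up to 4 genes with the highest FPKM and up to 4 with the largest day 9 ratio that passed the limit one way throughout days 3, 6 and 9. The members and the 17 lists (172 genes) were chosen with earlier results of these data known and support nothing by themselves. Promoter letters are RefSeq's. Scripts were tested on simulated data and run with Python 3.11.15, pandas 2.3.3, numpy 2.4.6 and scipy 1.17.1. Alternatives changed the added value, minimum, limit, scaling and the unit (the most abundant transcript); the reading of low values as fragments was added after the data were seen.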

Additional observations from a re-analysis of the deposited data

How the results depend on the processing

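No paired analysis was possible because each day has 1 library. Direction was checked only for member ratios past the 2-fold limit with 1 added, SOX9 on days 3, 6 and 9 and CEBPB on days 6 and 9. None of these changed direction. With 0.1 in place of 1 added, 2 members were higher on day 3 (SOX9, SOX5) and 4 on day 9 (also PPARG and CEBPB). Beside these were 1537 and 1647 of the 12859 genes tested. A 4-fold limit left 0 higher on days 3, 6 and 9. A 1.5-fold limit gave 4 on day 3, 4 on day 9 and 1 between days 3 and 9, beside 2234, 2330 and 633 of the same 12859 genes. Scaling to the same FPKM sum gave 3 on day 3 and 4 on day 9, beside 1690 and 1629, and scaling to a median log2 ratio of 0 gave 2 on day 3, beside 1279. With no minimum and 0.1 added, an alternative chosen after seeing the data, day 3 had 3 members higher and 2 lower, day 6 had 1 lower (LPL), day 9 had 4 higher and 1 lower, and 1 higher (FABP4) and 1 lower (SOX6) between days 3 and 9. Over all 19610 symbols that setting gave 2264 higher and 1261 lower for day 3 and 1469 lower for day 6. All 10 members reached 0.1 FPKM. These causes were not tested beyond the settings themselves.

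Over all genes, scaling moved the median log2 ratio by up to 0.20 (same sum, day 3). Scaling to the same sum also raised all values, so the added 1 and the minimum weighed less. Scaling to a median of 0 gave 1279 genes higher and 496 lower for day 3, 1386 against 581 for day 6 (in place of 1158 and 825) and 1450 against 620 for day 9 (in place of 1234 and 838). Scaling to the same upper quartile gave 1249 against 481 for day 3 and 1361 against 574 for day 6, and to the same sum 1746 against 592 for day 6. A 4-fold limit gave 214 higher for day 3, 259 for day 6 and 301 higher and 133 lower on day 9, a 1.5-fold limit 2330 and 2629, and no minimum with 0.1 added 2202 and 1620. Between days 3 and 9 these gave 34 and 12, 633 and 643, and 613 and 824, with 333 and 310 for 0.1 added and 73 lower for a minimum of 5 FPKM, against 179 and 111. Of 240 alternative log2 ratios of members, 208 kept their side of the limit. Ratios with 0.1 added were counted both with and without the minimum, though these are the same. Members with 1 transcript, such as SOX9, could not move under the transcript setting. Of 1224 list counts, 1106 stayed within 1.5 times, and of 564 list medians, 538 moved by 0.5 or less. The list counts leave out the 4-fold and 1.5-fold limits. Lowering or dropping the minimum with 1 added could not change a count, since genes below 1 FPKM cannot then pass the limit. The share kept is therefore no measure of robustness. Without replicates the error of every value is unknown.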
